A study of Homo sapiens with 10 samples.

Results

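Keratins are the proteins of the intermediate filaments of epithelial cells, and the genes described here are every row of the deposited table whose symbol is KRT followed by a number, with or without a letter from A to C. They numbered 55 of 58302 rows, of which 18 reached 0.5 CPM (counts per 1 M counts) in at least 2 of 10 libraries and 37 did not. By the classes used here, the measured genes were 3 of 3 basal, 3 of 5 stress, 4 of 13 suprabasal, 4 of 5 simple epithelial and 4 of 29 hair, follicle and other keratins. The cells were KYSE-410 and KYSE-30, 2 lines of human squamous carcinoma of the esophagus, whose RNA was taken 48 h after transfection. The groups were KYSE-410 with siSHIP2 (3 libraries), KYSE-410 with siCT (3), KYSE-30 with siSHIP2 (2) and KYSE-30 with siCT (2). The small interfering RNA siSHIP2 targets INPPL1, the gene of the lipid phosphatase SHIP2, and siCT is a non-targeting control from another supplier. One siRNA sequence against INPPL1 was analysed here, so loss of SHIP2 and other effects of that sequence cannot be told apart, and a further sequence used in KYSE-410 (siSHIP2#2) was not analysed here. The labels number replicates without naming separate cultures, and p-values therefore reflect the spread among these libraries alone, part of which may be technical.

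A keratin filament is built from pairs of a type I (acidic) and a type II (basic) protein, and the genes lie in a type I cluster on chromosome 17 and a type II cluster on chromosome 12, where the type I gene KRT18 also lies. Stratified squamous epithelium makes KRT5 with KRT14 or KRT15 in its basal layer, and in the esophagus KRT4 with KRT13 above it. KRT6A, KRT16 and KRT17 are induced in wounded, inflamed or proliferating epithelium and are called stress keratins. KRT7, KRT8, KRT18 and KRT19 belong to simple, single-layered epithelia, although squamous carcinomas can make them as well. Of the 55 genes, 29 are type I (10 measured) and 26 are type II (8 measured).

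Several keratin genes are near copies of each other, which bears on the values of KRT6A. The coding sequences of KRT6A, KRT6B and KRT6C are 1695 bases each in the transcripts used here. KRT6A differs from KRT6B at 43 bases (97.5% identity) and from KRT6C at 35 (97.9%), and KRT6B from KRT6C at 26 (98.5%). The stretch from coding base 663 to 722 (GENCODE 29 transcripts, GRCh38, chromosome 12), chosen as a dense group of differences, is shown with capitals at the 9 positions where the 3 genes are not all alike.
KRT6A: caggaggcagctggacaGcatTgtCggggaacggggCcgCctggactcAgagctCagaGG
KRT6B: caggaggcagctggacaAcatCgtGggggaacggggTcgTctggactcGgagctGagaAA
KRT6C: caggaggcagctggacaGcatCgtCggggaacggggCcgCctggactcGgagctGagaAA
Of all 50-base stretches of the KRT6A transcript, 39.1% also occur in another gene on the same strand, against 3.99% for KRT5 and 0.416% for KRT80. How reads that match several copies were counted is not given in the sources used here, so values of KRT6A may include or lack reads of its copies. KRT6B was at 0.15 to 0.4 CPM and KRT6C at 0.1 to 0.55 CPM over the 10 libraries.

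Each library held values that are whole multiples of about 0.05 CPM, and the whole numbers so recovered summed to about 20 M per library. A floor of 3 of these scaled counts, about 0.15 CPM, was set for every gene. INPPL1 stood at 44.7, 37.3 and 39.1 CPM in KYSE-410 siSHIP2 against 107, 108 and 109 CPM in KYSE-410 siCT, and at 23.2 and 24.5 CPM in KYSE-30 siSHIP2 against 39.9 and 36.2 CPM in KYSE-30 siCT. It fell in each line without overlap of the groups (log2 fold change -1.4, adjusted p = 5.81e-10 in KYSE-410, and -0.65, adjusted p = 0.00077 in KYSE-30, limma). With only the KYSE-30 libraries in the fit, 0 of 20466 genes were called in that line, INPPL1 included. Every KYSE-30 call by limma given here thus leans on a spread shared with KYSE-410. Of 12 squamous markers, 10 averaged at least 0.5 CPM in each group, and PKP1 and CLCA2 did not (PKP1 was at 0 in KYSE-30 siCT). Glandular markers reached that level for 4 or 5 of 12 genes with summed values of at most 61.5 CPM in any library.

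By level per length, each line made mostly simple epithelial keratins. CPM divided by the length of all annotated exons put KRT7, KRT8, KRT18, KRT19 and KRT20 together at 89.4% ± 0.897 of all keratin signal in KYSE-410 siSHIP2 and 88.1% ± 0.382 in KYSE-410 siCT (SD, n = 3 each). The share was 89.2% ± 0.112 in KYSE-30 siSHIP2 and 88.8% ± 0.236 in KYSE-30 siCT (SD, n = 2 each). KRT20, a keratin of intestinal epithelium, added almost nothing, at 0 to 0.2 CPM. The basal, stress and suprabasal classes, which here include the widely made KRT80, held most of the rest of the keratin signal. Hair, follicle and other keratins averaged between 0.149% and 0.276% of all keratin signal in the 4 groups, while most squamous markers outside the family were present.

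The lines reached the same simple share with different genes. KRT7, a type II keratin of ducts and glands, held 38.2% ± 1.85 of the keratin signal per kb in KYSE-410 siSHIP2 and 35.0% ± 1.15 in KYSE-410 siCT, but 0.861% ± 0.0174 in KYSE-30 siSHIP2 and 0.815% ± 0.0138 in KYSE-30 siCT. KRT8 and KRT18, the partner pair that simple epithelia make first in development, held 28.8% ± 0.701 in KYSE-410 siSHIP2, 30.4% ± 0.318 in KYSE-410 siCT, 67.5% ± 0.457 in KYSE-30 siSHIP2 and 63.6% ± 2.73 in KYSE-30 siCT. Among tested genes with an exon length (20390), KRT7 ranked 49 in KYSE-410 siSHIP2 and 54 in KYSE-410 siCT by CPM per kb, against 4942 in KYSE-30 siSHIP2 and 5362 in KYSE-30 siCT. KRT18 ranked 44 in KYSE-30 siSHIP2 and 45 in KYSE-30 siCT, against 163 in KYSE-410 siSHIP2 and 140 in KYSE-410 siCT.

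**Figure D1:**
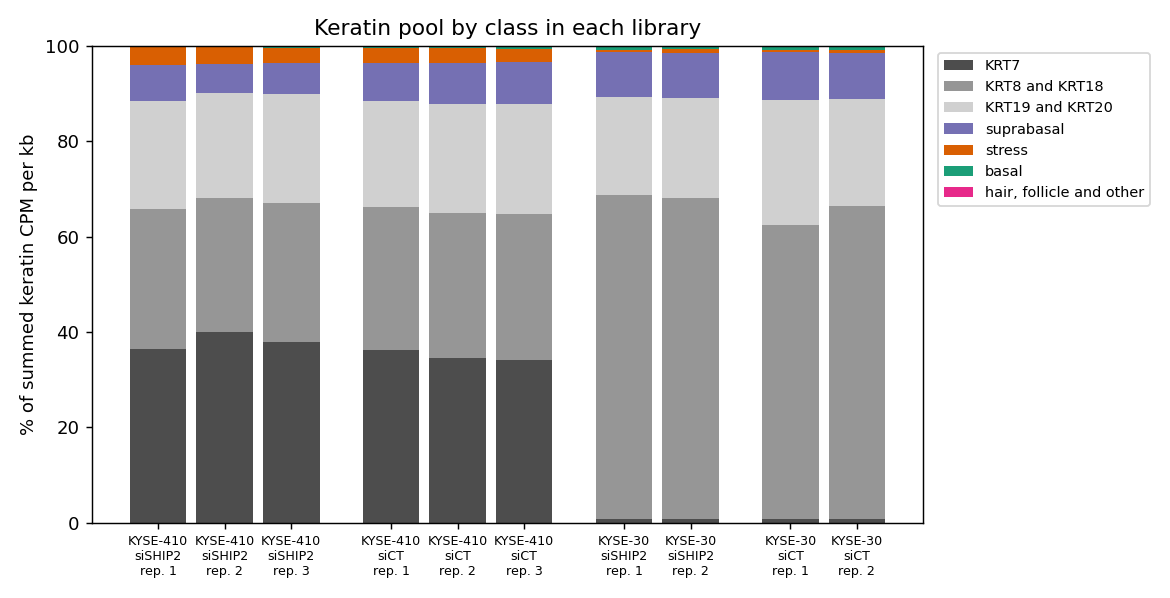
Share of summed keratin CPM per kb of exon (%, vertical axis) by class in each of the 10 libraries (bars), with the simple epithelial class split into KRT7, KRT8 with KRT18, and KRT19 with KRT20. The grey blocks together make 87.8% to 90.04% of every bar, and the dark KRT7 block is at 34.1% to 40.1% in KYSE-410 libraries and under 1% in KYSE-30 libraries.

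The other classes were small parts of the pool. Suprabasal keratins held 6.71% ± 0.741 in KYSE-410 siSHIP2 and 8.37% ± 0.449 in KYSE-410 siCT, and 9.49% ± 0.0444 in KYSE-30 siSHIP2 and 9.80% ± 0.346 in KYSE-30 siCT. Much of the suprabasal part was KRT80, at 3.46% ± 0.276 of all keratin signal in KYSE-410 siSHIP2, 4.37% ± 0.207 in KYSE-410 siCT, 7.99% ± 0.094 in KYSE-30 siSHIP2 and 7.27% ± 0.39 in KYSE-30 siCT. Stress keratins held 3.53% ± 0.247 in KYSE-410 siSHIP2, 3.04% ± 0.162 in KYSE-410 siCT, 0.597% ± 0.0992 in KYSE-30 siSHIP2 and 0.588% ± 0.125 in KYSE-30 siCT. Basal keratins were at 0.178% ± 0.0308 in KYSE-410 siSHIP2, 0.38% ± 0.00764 in KYSE-410 siCT, 0.534% ± 0.0395 in KYSE-30 siSHIP2 and 0.541% ± 0.0208 in KYSE-30 siCT. Type II over type I signal per kb was 1.2 ± 0.063 in KYSE-410 siSHIP2 and 1.14 ± 0.0512 in KYSE-410 siCT, above 1 in all 6 libraries of that line. It was 0.639 ± 0.000583 in KYSE-30 siSHIP2 and 0.554 ± 0.0247 in KYSE-30 siCT. Median protein-coding transcript length in place of exon length, a choice made after the data were seen, gave simple shares of 92.6% to 95.1%. It kept the ratio above 1 in KYSE-410 (1.51 to 1.75) and below 1 in KYSE-30 (0.731 to 0.896). Suprabasal shares became 2.63% to 4.79%. The order of the basal share with siCT was reversed, at 0.608% to 0.672% in KYSE-410 and 0.381% and 0.408% in KYSE-30. That order between lines thus depended on the length used.

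**Figure D2:**
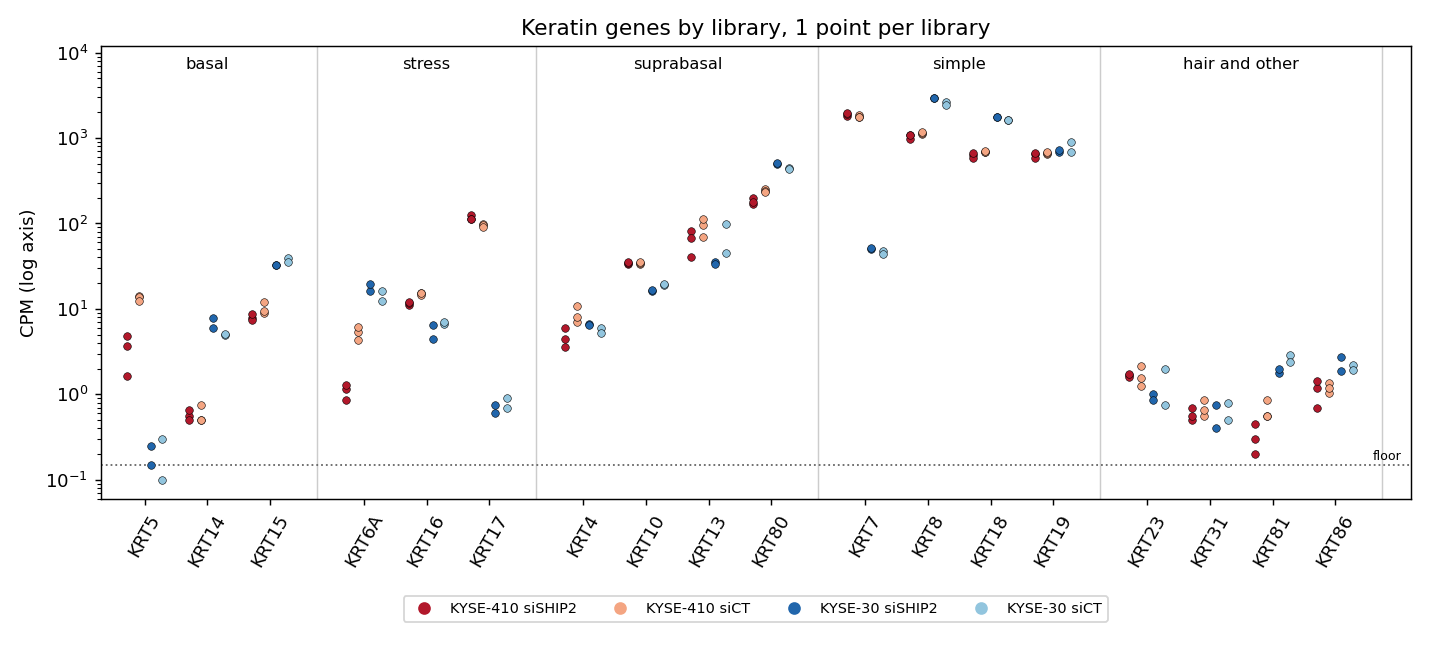
CPM (log axis) of the 18 measured keratin genes in each of the 10 libraries, 1 point per library, by class and group, with the floor of about 0.15 CPM dotted. KRT17, KRT7 and KRT5 sit far higher in KYSE-410 than in KYSE-30, and KRT14, KRT15, KRT8 and KRT18 sit higher in KYSE-30.

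The comparison of KYSE-410 siCT with KYSE-30 siCT asks which keratins separate the lines without the knockdown. Of 18 keratins, 15 were called (adjusted p under 0.05, limma over 20466 genes), 6 higher and 9 lower in KYSE-410, where 75.9% of all genes were called, 37.2% higher and 38.7% lower. The groups did not overlap for 15 of 18, against 82.5% of all genes. The median log2 difference of the 18 was -0.10, against -0.02 over all genes. KRT17, which pairs with KRT6A or KRT5 in wounded and follicular epithelium, stood at 97.5, 97.0 and 90.1 CPM in KYSE-410 siCT. In KYSE-30 siCT it stood at 0.9 and 0.7 CPM, which are 18 and 14 scaled counts. The log2 difference was 5.74 (SE 0.0867, adjusted p = 4e-18, limma) and the ratio of means 119-fold. The size of that ratio is uncertain, since KRT17 pseudogene rows summed to as much as 80.0% of KRT17 in a KYSE-30 library. KRT7 stood at 1871, 1775 and 1784 CPM in KYSE-410 siCT and at 48.1 and 44.3 CPM in KYSE-30 siCT, 39.2-fold higher (log2 5.26, SE 0.0553, adjusted p = 4.51e-20).

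The basal class split within itself. KRT5, the type II keratin of basal cells, was at 14.2, 13.7 and 12.2 CPM in KYSE-410 siCT and at 0.1 and 0.3 CPM in KYSE-30 siCT, which are 2 and 6 scaled counts, so that no ratio is given (log2 difference 3.59, SE 0.224, adjusted p = 2.43e-10). Its type I partner KRT14 ran the other way, at 0.75, 0.5 and 0.5 CPM in KYSE-410 siCT and 4.90 and 5.15 CPM in KYSE-30 siCT (log2 difference -1.93, SE 0.126, adjusted p = 4.27e-10). KRT15, a further type I basal keratin, was at 8.95, 9.34 and 12.1 CPM in KYSE-410 siCT and 39.0 and 35.1 CPM in KYSE-30 siCT (log2 difference -1.78, SE 0.11, adjusted p = 2.14e-10). With siCT, each line thus had 1 partner of the KRT5 and KRT14 pair under 1 CPM in all of its libraries. Per kb, KRT5 exceeded KRT14 between 10.1 and 14.6 times in the KYSE-410 siCT libraries.

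The stress keratins also parted company. KRT16 was higher in KYSE-410 siCT (15.1 ± 0.333 CPM, n = 3) than in KYSE-30 siCT (6.87 ± 0.318 CPM, n = 2; log2 1.03, adjusted p = 5.42e-07, limma), while KRT6A, its type II partner, was lower in KYSE-410 siCT (5.26 ± 0.95 CPM) than in KYSE-30 siCT (14.2 ± 2.76 CPM; log2 -1.28, adjusted p = 8.44e-07, limma). Among suprabasal keratins, KRT10 of the cornifying epidermis was higher in KYSE-410 siCT (34.5 ± 0.921 CPM, against 19.2 ± 0.214 CPM in KYSE-30 siCT, log2 0.81), and KRT80, which is made in most epithelia, was lower (240.2 ± 9.66 CPM in KYSE-410 siCT against 437 ± 9.32 CPM in KYSE-30 siCT, log2 -0.86). KRT13 was not called (92.3 ± 21.8 CPM in KYSE-410 siCT against 71.3 ± 36.9 CPM in KYSE-30 siCT), and its KYSE-30 siCT libraries lay at 97.4 and 45.2 CPM on either side of the lowest KYSE-410 siCT library. In the simple class KRT8 and KRT18 were both lower in KYSE-410 siCT (log2 -1.15 and -1.23), at 1154 ± 25.2 and 696 ± 12.6 CPM against 2560 ± 142 and 1633 ± 24.1 CPM in KYSE-30 siCT.

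The remaining calls between lines were smaller. KRT81 and KRT86, keratins of hair, were lower in KYSE-410 siCT (log2 -1.14 and -0.48), KRT19 was lower (log2 -0.23) and KRT4 was higher (log2 0.53), while KRT23 and KRT31 were not called. Without KYSE-410 siCT replicate 1 the adjusted p of KRT19 was 0.0525, and without KYSE-30 siCT replicate 1 it was 0.568 (log2 -0.05). For KRT86 it was 0.0735 without KYSE-30 siCT replicate 1 (log2 -0.43), and for KRT4 it was 0.051 without KYSE-410 siCT replicate 3 (log2 0.37) and 0.101 without KYSE-30 siCT replicate 2 (log2 0.44). Without KYSE-30 siCT replicate 1, KRT13 and KRT23 were called as higher (log2 0.99 and 0.58, adjusted p = 0.00911 and 0.00825). The call of KRT19 was also lost with TMM scaling (adjusted p = 0.13), with relative log expression scaling (adjusted p = 0.0628) and with no filter.

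Knockdown in KYSE-410 lowered keratins of several classes and raised 1. Of 18 keratins, 9 were called, 1 higher and 8 lower, where 49.9% of all genes were called, 30.6% higher and 19.3% lower. The median log2 fold change was -0.14 over the 18 keratins and 0.07 over all genes, and 10 of 18 had no overlap between the groups against 56.1% of all genes. KRT5 and KRT6A fell most, 3.96-fold and 4.79-fold, and KRT17 was the gene that rose. On the TMM and relative log expression scales 11 and 10 keratins were called, all lower, and KRT17 was not among them. Of 20466 genes, 5293 and 5318 were called lower on these scales and 4086 and 4335 higher. Of all genes called in this comparison, 61.3% were higher on the deposited scale, 43.6% with TMM and 44.9% with relative log expression scaling.

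**Figure D3:**
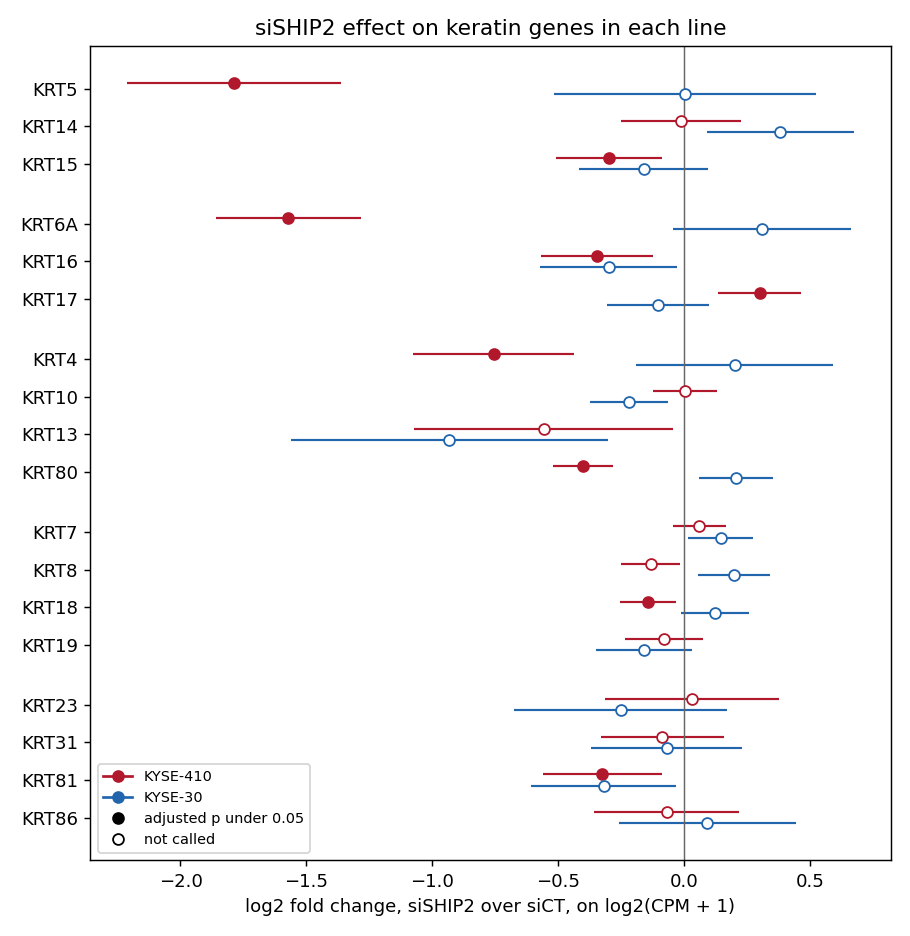
log2 fold change of siSHIP2 over siCT on log2(CPM + 1) (horizontal axis) for the 18 measured keratins, in KYSE-410 (red) and KYSE-30 (blue), with 95% confidence intervals from limma; filled points were called at an adjusted p under 0.05. The 9 filled points are all KYSE-410, with KRT5 at -1.79, KRT6A at -1.57 and KRT4 at -0.76 farthest from 0.

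Of the basal keratins in KYSE-410, KRT5 had 4.85, 1.65 and 3.65 CPM in siSHIP2 libraries against 14.2, 13.7 and 12.2 CPM in siCT libraries. All siSHIP2 libraries were below all siCT libraries, and siSHIP2 replicate 2 was the lowest of the set. KRT5 averaged 3.38 ± 1.62 CPM in siSHIP2 and 13.4 ± 1.02 CPM in siCT (SD, n = 3 each), 3.96-fold lower, with a log2 fold change of -1.79 (SE 0.2, adjusted p = 2.19e-06, limma). It remained called in each of 19 alternatives, between -2.09 and -1.46. KRT15 fell less, with 7.79, 7.50 and 8.69 CPM in siSHIP2 against 8.95, 9.34 and 12.1 CPM in siCT (log2 -0.30, adjusted p = 0.0191). Its call was lost without siCT replicate 3, the highest library (log2 -0.18, adjusted p = 0.128), without siSHIP2 replicate 2 (log2 -0.26, adjusted p = 0.0658), and with only the 6 libraries of the line in the fit (adjusted p = 0.0865). KRT14 was near 0.5 CPM in all 6 libraries and was not called (log2 -0.01, interval -0.25 to 0.23).

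KRT5 lies on the minus strand of chromosome 12 (chr12:52514575-52520687 in GENCODE 29, hg38). The 250 bases before its start in RefSeq (GRCh38.p14, chr12:52520395-52520644, minus strand) are shown because KRT5 had the greatest fall of the measured keratins on the log2(CPM + 1) scale in KYSE-410, beside those of KRT4 (chr12:52814117-52814366, minus strand), which also fell, and of KRT10 (chr17:40822615-40822864, minus strand), which was not called there. Capitals mark a match of TATAAA, searched on both strands with TGANTCA (the AP-1 motif) and GGGCGG (an SP1 motif).
KRT5: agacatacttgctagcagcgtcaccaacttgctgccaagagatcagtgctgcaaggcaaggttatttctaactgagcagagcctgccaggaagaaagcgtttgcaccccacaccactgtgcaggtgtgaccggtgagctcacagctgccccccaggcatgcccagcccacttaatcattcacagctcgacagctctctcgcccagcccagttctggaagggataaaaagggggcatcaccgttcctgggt
KRT4: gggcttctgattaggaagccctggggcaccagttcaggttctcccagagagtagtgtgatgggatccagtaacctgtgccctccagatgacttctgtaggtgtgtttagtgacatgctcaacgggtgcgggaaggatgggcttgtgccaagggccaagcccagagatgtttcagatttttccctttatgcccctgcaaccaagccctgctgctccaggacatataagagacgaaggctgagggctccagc
KRT10: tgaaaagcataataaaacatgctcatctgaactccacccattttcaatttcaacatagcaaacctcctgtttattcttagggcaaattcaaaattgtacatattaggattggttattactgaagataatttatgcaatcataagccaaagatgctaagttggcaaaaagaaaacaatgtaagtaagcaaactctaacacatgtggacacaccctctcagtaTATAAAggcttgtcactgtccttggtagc
TATAAA begins 29 bases before the start of KRT10, and none of the 3 motifs occurs in the windows of KRT5 and KRT4. Over 35116 promoters of the same length, 10.7% hold TATAAA, 6.57% TGANTCA and 42.6% GGGCGG. The table held promoters of 5 of the 18 measured keratins, and a missing match says only that these letters are not in the window. The windows of KRT5 and KRT4 lie within the GENCODE 29 bounds of these genes (KRT4 at chr12:52806549-52814551). RefSeq thus places their starts inside those bounds, and bases before the GENCODE bounds were not searched.

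All 3 measured stress keratins were called in KYSE-410, in both directions. KRT6A had 1.15, 0.85 and 1.30 CPM in siSHIP2 against 5.30, 6.20 and 4.30 CPM in siCT, and the groups did not overlap. It averaged 1.1 ± 0.229 CPM in siSHIP2 and 5.26 ± 0.95 CPM in siCT (SD, n = 3 each), 4.79-fold lower, with a log2 fold change of -1.57 (SE 0.136, adjusted p = 1.61e-07, limma). Its range over 19 alternatives was -2.36 to -1.47, and all were called. KRT16, the type I partner of KRT6A, fell to 11.1, 11.6 and 12.1 CPM in siSHIP2 against 15.3, 14.7 and 15.1 CPM in siCT (log2 -0.35, SE 0.105, adjusted p = 0.0116). Per kb, KRT6A was 0.0617 to 0.0908 of KRT16 in siSHIP2 and 0.24 to 0.357 in siCT. KRT17 had 126, 113 and 112 CPM in siSHIP2 against 97.5, 97.0 and 90.1 CPM in siCT, also without overlap (log2 0.30, SE 0.0776, adjusted p = 0.00429). The call of KRT17 depended on the scale of the limma fit: the rise was 0.18 with TMM (adjusted p = 0.0953) and 0.19 with relative log expression scaling (adjusted p = 0.067). It was called in all other alternatives, edgeR and DESeq2 on the recovered whole numbers among them.

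Suprabasal keratins showed 2 falls and no rise in KYSE-410. KRT4, the type II keratin of the esophageal suprabasal layers, had 6.05, 3.60 and 4.45 CPM in siSHIP2 against 7.05, 8.04 and 10.7 CPM in siCT. The groups did not overlap, and the mean was 4.70 ± 1.24 CPM in siSHIP2 and 8.59 ± 1.88 CPM in siCT (n = 3 each; log2 -0.76, SE 0.15, adjusted p = 0.000552, limma). KRT80 fell to 199, 169.7 and 177 CPM in siSHIP2 against 250.2, 239.5 and 231 CPM in siCT (log2 -0.40, SE 0.0563, adjusted p = 2.12e-05). KRT13, the type I partner of KRT4, was variable, with 81.8, 40.9 and 68.2 CPM in siSHIP2 against 68.9, 96.2 and 112 CPM in siCT. Its groups overlapped and it was not called (log2 -0.56, interval -1.07 to -0.04, adjusted p = 0.0675). It was called without siCT replicate 1 (log2 -0.75, adjusted p = 0.0281), without siSHIP2 replicate 1 (log2 -0.76, adjusted p = 0.0137), without KYSE-30 siCT replicate 1 (log2 -0.56, adjusted p = 0.0401), without KYSE-30 siCT replicate 2 (log2 -0.56, adjusted p = 0.0401) and in 3 further alternatives. KRT10 averaged 34.6 ± 1.07 CPM in siSHIP2 and 34.5 ± 0.921 CPM in siCT and was not called (log2 0.00, interval -0.12 to 0.13).

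**Figure D4:**
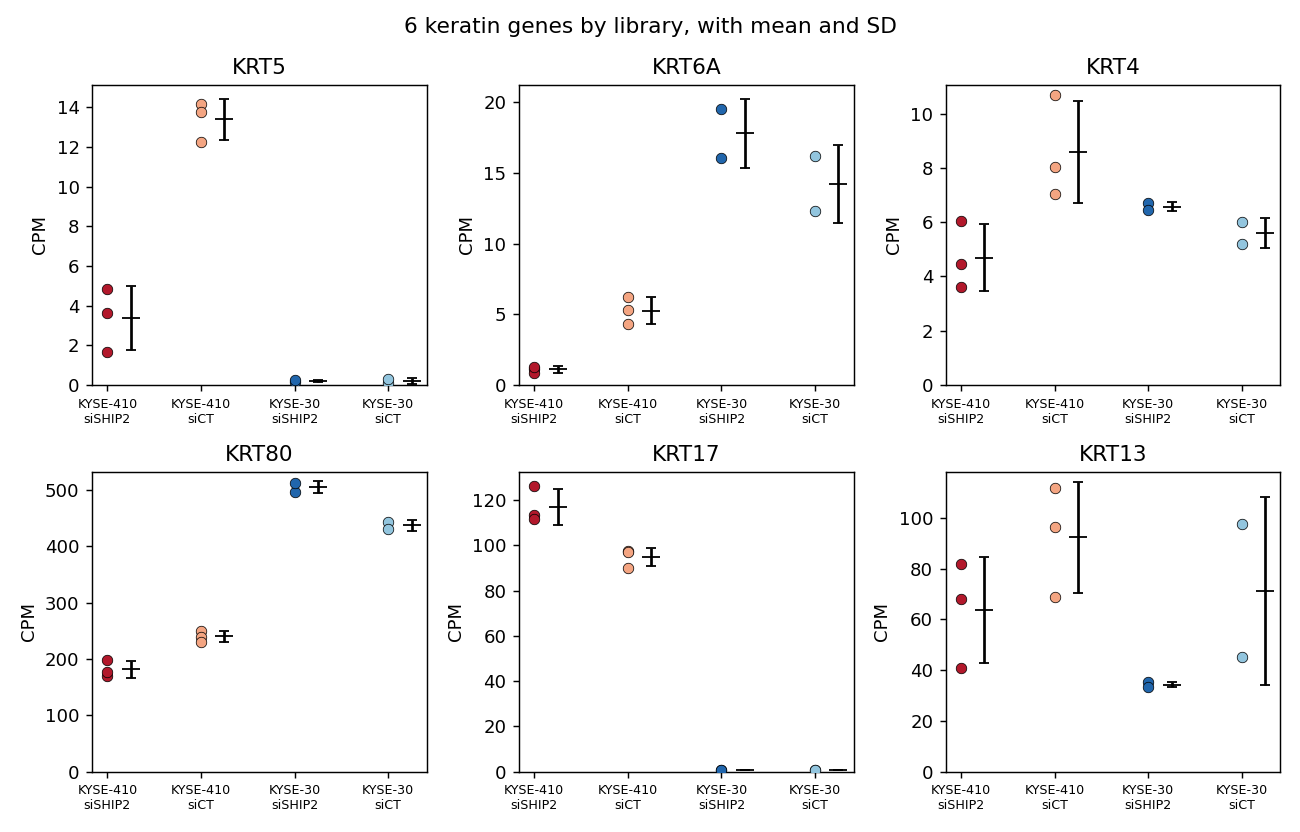
CPM (vertical axis, from 0) of 6 keratin genes in each library, with group mean and SD beside the points, in KYSE-410 siSHIP2, KYSE-410 siCT, KYSE-30 siSHIP2 and KYSE-30 siCT. KRT5, KRT6A, KRT4 and KRT80 are lower and KRT17 higher in KYSE-410 siSHIP2 than in KYSE-410 siCT without overlap, whereas the KRT13 groups overlap in KYSE-410.

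The simple epithelial keratins, which made most of the pool, moved little in KYSE-410. KRT18 was the 1 called, at 634, 584 and 674 CPM in siSHIP2 against 690.1, 687 and 710.1 CPM in siCT (log2 -0.14, SE 0.0527, adjusted p = 0.0322). That call was lost without siCT replicate 1, 2 or 3 (adjusted p = 0.0655, 0.0592 and 0.107; log2 -0.15, -0.15 and -0.13) without siSHIP2 replicate 2 (log2 -0.09, adjusted p = 0.185), with no filter (adjusted p = 0.0741) and with only the 6 libraries of the line in the fit (adjusted p = 0.0783). KRT8, its partner, averaged 1053 ± 66.1 CPM in siSHIP2 and 1154 ± 25.2 CPM in siCT (log2 -0.13, adjusted p = 0.0541), and without siSHIP2 replicate 1 or 3 it was called (log2 -0.16 each, adjusted p = 0.0214 and 0.0463). TMM, relative log expression scaling, edgeR and DESeq2 also called KRT8 as lower (log2 -0.25, -0.24, -0.23 and -0.24), as did a filter of 10 CPM (log2 -0.13). The ratio of KRT8 to KRT18 per kb was 0.782 ± 0.026 in siSHIP2 and 0.776 ± 0.0116 in siCT. KRT7 averaged 1889 ± 74.9 CPM in siSHIP2 and 1810 ± 53.1 CPM in siCT (log2 0.06, interval -0.04 to 0.17) and KRT19 averaged 636 ± 40.8 CPM in siSHIP2 and 671 ± 18.9 CPM in siCT (log2 -0.08, interval -0.23 to 0.08). KRT7 was not called, and its sign turned to -0.06 with TMM, which called KRT19 as lower (log2 -0.20).

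KRT7 overlaps KRT7-AS on the opposite strand of chromosome 12 (chr12:52245048-52247448), and whether counting used strand is not given in the sources used here. KRT7-AS was at 26.5% to 26.9% of the KRT7 value in KYSE-410 siSHIP2, 27.4% to 27.6% in KYSE-410 siCT, 53.3% and 54.2% in KYSE-30 siSHIP2 and 55.1% and 48.9% in KYSE-30 siCT, and if strand was not used, reads from the stretch where the 2 genes overlap cannot be told apart. Of all 50-base stretches of the KRT7 transcript, 10.4% occur on the opposite strand of another gene. For KRT18 this share was 20.04%, with KRT8, which overlaps it on the opposite strand, as the largest sharer. For KRT8 it was 3.601%. If strand was not used, reads from the stretch where KRT8 and KRT18 overlap cannot be told apart either. The part of such reads in their levels, ratio and fold changes was not tested. Rows named as pseudogenes of KRT8 (50) summed to 2.04% to 2.77% of KRT8, and those of KRT18 (67) to 0.354% to 0.781% of KRT18. For KRT17 the 8 pseudogene rows summed to 0.35 to 0.6 CPM, which is at most 80.0% of KRT17 in a KYSE-30 library, so its level in KYSE-30 is uncertain. KRT16 and KRT14 share 22.0% and 23.8% of their 50-base stretches with other genes on the same strand, including each other and KRT16 pseudogenes.

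Of the hair, follicle and other keratins in KYSE-410, KRT81 fell to 0.3, 0.2 and 0.45 CPM in siSHIP2 against 0.55, 0.55 and 0.849 CPM in siCT, a few scaled counts above the floor (log2 -0.32, adjusted p = 0.0232). It lost its call without siCT replicate 3 (log2 -0.24, adjusted p = 0.116) without siSHIP2 replicate 2 (log2 -0.26, adjusted p = 0.1) and with no filter (adjusted p = 0.0751). KRT86, which overlaps KRT81 on the opposite strand, and KRT23 and KRT31 were not called. Of all 50-base stretches, 44.57% of KRT81 and 40.5% of KRT86 occur in transcripts of other genes, including each other and the pseudogene KRT87P. KRT87P stood at 7.246, 7.946 and 7.992 CPM in KYSE-410 siSHIP2 against 12.043, 11.243 and 12.142 CPM in KYSE-410 siCT. In KYSE-30 siCT it stood at 4.397 and 3.698 CPM. The part of such shared reads in the KRT81 and KRT86 values, within or between lines, was not tested.

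In KYSE-30 no keratin was called after knockdown (0 of 18 by limma, where 2.36% of all genes were called, 0.811% higher and 1.54% lower), and edgeR and DESeq2 on the recovered whole numbers also called 0. At an unadjusted p under 0.05 there were 8. The share of all genes under that p was not counted, here or for the lists below. Groups of 2 did not overlap for 11 of 18 keratins, against 44.6% of all genes. The median log2 fold change was -0.03 over the 18 keratins and 0.00 over all genes. KRT6A stood at 16.1 and 19.5 CPM in siSHIP2 against 12.3 and 16.2 CPM in siCT, groups that overlap (log2 0.31, interval -0.04 to 0.66, adjusted p = 0.352). KRT80 stood at 497 and 512 CPM in siSHIP2 against 444 and 431 CPM in siCT (log2 0.21, interval 0.06 to 0.35, adjusted p = 0.121). KRT8 stood at 2929 and 2940.4 CPM in siSHIP2 against 2661 and 2460 CPM in siCT (log2 0.20, interval 0.06 to 0.34, adjusted p = 0.126).

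Among the other keratins of KYSE-30, KRT14 was at 7.74 and 6.05 CPM in siSHIP2 against 4.90 and 5.15 CPM in siCT (log2 0.38, interval 0.09 to 0.68, adjusted p = 0.147). KRT5 was at 0.15 and 0.25 CPM in siSHIP2 against 0.1 and 0.3 CPM in siCT, 2 to 6 scaled counts a library, and a change was not detectable at this level. KRT13 had the greatest estimate, at 35.2 and 33.5 CPM in siSHIP2 against 97.4 and 45.2 CPM in siCT, which rested on siCT replicate 1 (log2 -0.93, interval -1.56 to -0.30, adjusted p = 0.105). KRT13 and KRT19 were called without siCT replicate 2 (log2 -1.48 and -0.34, adjusted p = 0.0356 and 0.048), KRT16 without siSHIP2 replicate 2 (log2 -0.53, adjusted p = 0.0452), and KRT80 without KYSE-410 siSHIP2 replicate 1, which enters through the shared spread (log2 0.21, adjusted p = 0.0431). Leaving out 1 of the 2 libraries of a group in KYSE-30 assumes that the lone library varies like the other groups.

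Whether the lines differed in their response was tested by the difference of the 2 fold changes (KYSE-410 minus KYSE-30), which was called for 7 of 18 keratins against 32.4% of all genes. Of all genes so called, 60.3% were higher on the deposited scale, 42.1% with TMM and 44.8% with relative log expression scaling. This difference and the comparison of lines share the siCT libraries with the comparisons within lines. KRT6A differed by -1.88 (SE 0.215, adjusted p = 1.54e-05), KRT5 by -1.79 (SE 0.317, adjusted p = 0.000506), KRT4 by -0.96 (SE 0.238, adjusted p = 0.00582) and KRT80 by -0.61 (SE 0.0889, adjusted p = 0.000113). KRT8 and KRT18 differed by -0.33 and -0.27 (adjusted p = 0.00826 and 0.0223), and KRT17 by 0.40 (adjusted p = 0.0194). The difference for KRT6A, KRT4 and KRT80 was called in every alternative in which the gene was tested. For KRT5, edgeR and DESeq2 gave -2.07 with adjusted p = 0.195 and 0.0923, with KYSE-30 at 2 to 6 scaled counts a library.

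Further differences between lines depended on 1 library or on the scale. The KRT8 difference was -0.27 (adjusted p = 0.0504) without KYSE-30 siCT replicate 2. The KRT18 difference lost its call without KYSE-410 siCT replicate 3, KYSE-410 siSHIP2 replicate 2, KYSE-30 siCT replicate 2, KYSE-30 siSHIP2 replicate 1 or KYSE-30 siSHIP2 replicate 2, with values of -0.25, -0.21, -0.25, -0.27 and -0.26 and adjusted p of 0.0531, 0.0517, 0.0703, 0.0688 and 0.0689. It was also lost with no filter (adjusted p = 0.0585). The KRT17 difference lost its call without KYSE-410 siCT replicate 3 (0.37, adjusted p = 0.0551), KYSE-30 siCT replicate 1 (0.32, adjusted p = 0.0761) or KYSE-30 siSHIP2 replicate 1 (0.34, adjusted p = 0.079), and in 4 other alternatives. Without KYSE-30 siSHIP2 replicate 2 the KRT14 difference was called (-0.55, adjusted p = 0.0431), and without KYSE-30 siCT replicate 2 the KRT23 difference was (0.67, adjusted p = 0.0379).

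By type, 5 of 8 type II keratins were called in KYSE-410 (KRT4, KRT5, KRT6A, KRT80 and KRT81), all lower, with a median log2 fold change of -0.36, where 19.3% of all genes were called lower. Of 10 type I keratins, 3 were lower (KRT15, KRT16 and KRT18) and 1 higher (KRT17), with a median of -0.08. The difference between types was not tested. KRT6A, KRT5 and KRT4, the 3 greatest falls, follow one another among the measured genes of the type II cluster, and genes that were not measured lie between KRT5 and KRT4 (the map of mean levels in order along the chromosomes shows all 55). KRT80 and KRT7 are the outermost genes at one end of that cluster, and KRT8 and KRT18 lie at the other.

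**Figure D5:**
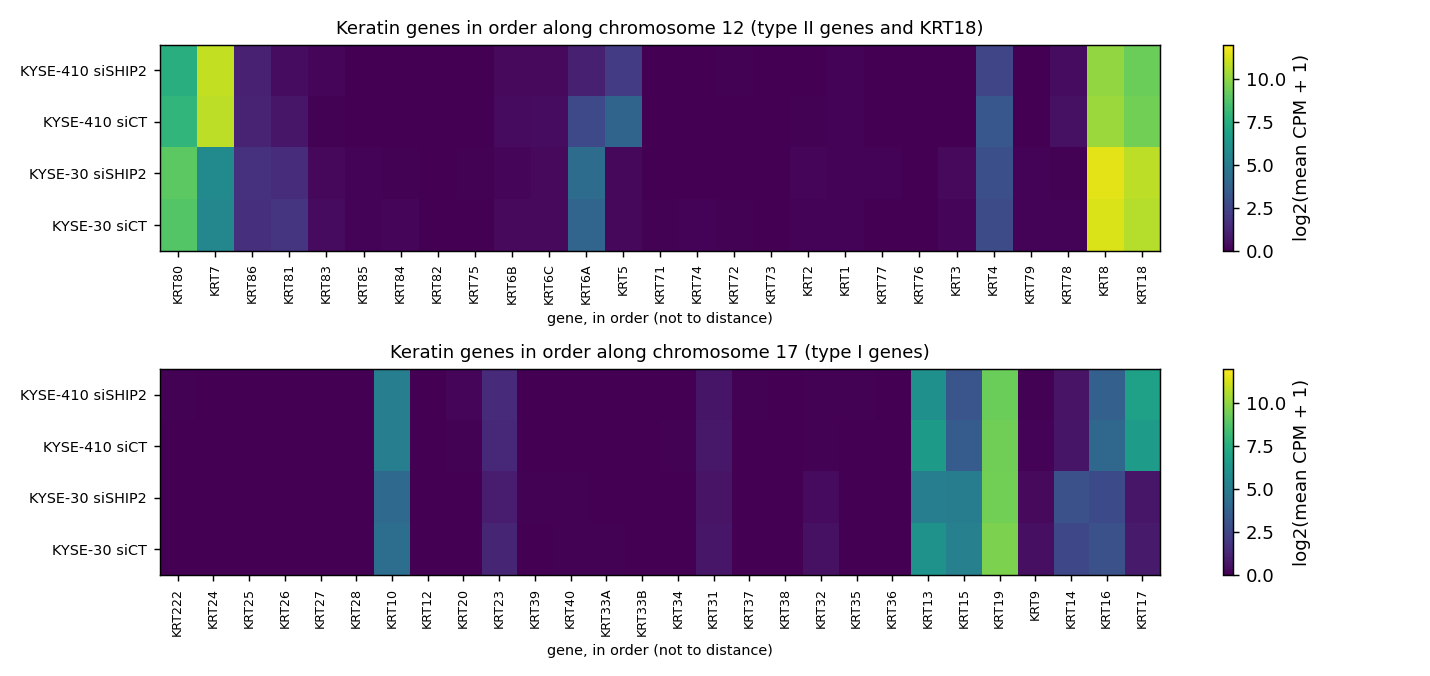
Mean level of all 55 keratin genes as log2(mean CPM + 1) (colour) in the 4 groups (rows), in gene order along chromosome 12 and chromosome 17 and not to distance. Of the genes shown, 37 did not reach 0.5 CPM in 2 libraries and are dark, KRT7 is bright in KYSE-410 rows, and KRT8 and KRT18 are brightest in KYSE-30 rows.

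Of the 37 genes that were not measured, 7 were at 0 in all libraries and 30 were above 0 in some library. Just inside the threshold was KRT31 at 0.4 to 0.849 CPM over the 10 libraries, and just outside were KRT78 and KRT9 (each 0 to 0.6 CPM), KRT6C (0.1 to 0.55 CPM) and KRT32 (0 to 0.5 CPM). KRT1, the type II partner of KRT10 in cornifying epidermis, was at 0 to 0.2 CPM, so KRT10 had no measured level of that partner beside it. KRT20 was the simple keratin not measured and KRT24 a suprabasal one at 0 in all 10 libraries.

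Other intermediate filament genes were counted beside the family. In KYSE-410, 3 of 11 tested rose and 2 fell (median log2 0.03), against 30.6% of all genes called higher and 19.3% called lower. VIM, the filament protein of mesenchymal cells, averaged 7.96 ± 0.848 CPM in siSHIP2 and 3.80 ± 0.736 CPM in siCT (log2 0.91, adjusted p = 1.26e-05, limma), and GFAP, an astrocyte filament, averaged 1.83 ± 0.203 CPM in siSHIP2 and 0.517 ± 0.0577 CPM in siCT (log2 0.90, adjusted p = 7.6e-06, limma). LMNB2, of the nuclear lamina, and SYNM, a filament linker, fell (log2 -0.49 and -0.44). In KYSE-30, 0 of 11 were called by limma, edgeR or DESeq2, with 3 at an unadjusted p under 0.05 by limma, and VIM was at 127 ± 0.693 CPM in siSHIP2 and 145 ± 33.7 CPM in siCT (log2 -0.17, adjusted p = 0.603, limma). Between lines with siCT, 2 were higher and 7 lower in KYSE-410, where 75.9% of all genes were called, among them VIM (3.80 CPM in KYSE-410 against 145 CPM in KYSE-30, log2 -4.92), SYNM (3.11 CPM in KYSE-410 against 53.9 CPM in KYSE-30, log2 -3.74), NEFH (0.05 CPM in KYSE-410 against 40.6 CPM in KYSE-30) and INA, listed at 0 in KYSE-410 against 175 CPM in KYSE-30. NEFH and INA are filament proteins of neurons.

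Genes that anchor keratin filaments or turn them over moved in both directions. In KYSE-410, 6 of 20 tested rose and 9 fell (median log2 -0.07), against 30.6% and 19.3% of all genes. KLHL24, the adaptor of a ubiquitin ligase that acts on KRT14, averaged 74.5 ± 5.66 CPM in siSHIP2 and 10.6 ± 1.38 CPM in siCT (log2 2.70, adjusted p = 1.67e-10, limma), while KRT14 itself was near 0.5 CPM there. The falls included PKP4, a catenin of cell junctions (94.0 ± 15.2 CPM in siSHIP2 against 189.6 ± 2.87 CPM in siCT, log2 -1.02), ITGB4, a hemidesmosome integrin subunit (159.7 ± 18.1 CPM in siSHIP2 against 242 ± 6.64 CPM in siCT, log2 -0.60), and FAM83H, which binds keratin filaments (216 ± 7.99 CPM in siSHIP2 against 278 ± 0.891 CPM in siCT, log2 -0.37). In KYSE-30, 1 of 20 was called, where 2.36% of all genes were. It was ITGA6, the partner of ITGB4, as lower (584 ± 16.6 CPM in siSHIP2 against 727 ± 21.8 CPM in siCT, log2 -0.32, adjusted p = 0.0377, limma). On the TMM scale 0 were called (7 at an unadjusted p under 0.05), where 160 of 20466 genes were. KLHL24 was not called in KYSE-30 (log2 -0.32, adjusted p = 0.199, limma). Between lines with siCT, 6 were higher and 12 lower in KYSE-410, where 75.9% of all genes were called, with COL17A1, a hemidesmosome collagen, at 12.6 ± 1.19 CPM in KYSE-410 and 178 ± 21.6 CPM in KYSE-30 (log2 -3.72).

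Of 26 transcription factors known to act on keratin genes, 10 rose and 3 fell in KYSE-410 (median log2 0.07), and on the TMM scale 9 rose and 7 fell. Of all genes, 30.6% were called higher and 19.3% lower on the deposited scale, 49.9% in all. With TMM, 4086 of 20466 genes were called higher and 5293 lower. The AP-1 members JUND, FOS and JUN rose (log2 1.37, 1.30 and 0.58), while JUNB fell (log2 -0.27, adjusted p = 0.00618, limma) and FOSL1 and FOSL2 were not called. A rise was also called for OVOL1, a repressor in epidermal differentiation (log2 0.63). TP63, the regulator of basal keratins, was not called (83.9 ± 9.25 CPM in siSHIP2 against 90.5 ± 4.67 CPM in siCT, log2 -0.11, adjusted p = 0.273, limma). In KYSE-30, 1 rose and 2 fell, where 2.36% of all genes were called: JUNB was higher (log2 0.42), and SOX2 and TP63 were lower (log2 -1.04 and -0.55; TP63 at 31.1 ± 0.968 CPM in siSHIP2 against 46.2 ± 7.31 CPM in siCT), and on the TMM scale JUNB was not called. Between lines with siCT, 12 were higher and 11 lower in KYSE-410, against 37.2% and 38.7% of all genes, with JUNB, HES1, KLF5 and TP63 higher (log2 2.26, 1.96, 1.82 and 0.96) and STAT3 lower (log2 -1.2).

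The squamous markers outside the family also moved in KYSE-410. Their summed level was 1126 to 1231 CPM in siSHIP2 and 1280 to 1363 CPM in siCT, and 1 of 10 tested rose (PERP) and 6 fell, against 30.6% and 19.3% of all genes. In KYSE-30 the sums were 2071 to 2126 CPM in siSHIP2 and 2261 to 2355 CPM in siCT. There, 3 of 10 fell, against 1.54% of all genes, and 1 fell on the TMM scale, against 114 of 20466 genes. The part of this in the keratin values was not tested, and in bulk RNA fewer cells of a kind and less RNA per cell cannot be told apart.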

How the data were processed

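Per the submitters' processing notes, reads of Ovation Solo libraries of total RNA were aligned with STAR 2.5.3a to hg38 and assigned to genes by HTSeq. What the authors deposited is CPM (each count divided by the summed counts in M) of 58302 genes in 10 libraries. Per the values deposited by the authors, all CPM of a library lie within 0.001 CPM of whole multiples of 1 step (100% of values). These whole numbers sum to about 20 M in each library, which points to counts scaled to a common total. No header or note states that step, so the depth before scaling is unknown here and the floor of 3 scaled counts (about 0.15 CPM) covers counting error only. The whole numbers served edgeR and DESeq2 as alternatives only.

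The test was limma 3.58.1 (R 4.3.3) with trend on log2(CPM + 1), so a fold change understates that of low genes. It fitted 4 group means over 10 libraries to the 20466 genes that reached 0.5 CPM in 2 or more libraries, two-sided, with Benjamini-Hochberg adjustment over all of them at 0.05. Fold ratios are of mean CPM. All measured keratins are named, with up to 4 called members of each list that have the smallest adjusted p, plus KLHL24, VIM and TP63 and, chosen after their values were seen, the other AP-1 members of the list. Members, classes and lists were chosen with earlier results of these data known. The lists hold 16 other filament genes, 21 linker and turnover genes, 26 transcription factors, and markers of squamous (12), glandular (12), fibroblast (8) and leukocyte (6) cells.

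Levels between genes use CPM per kb of all annotated exons (GENCODE 29, GRCh38). Promoters are from RefSeq GRCh38.p14. Alternatives were TMM and relative log expression scaling, a pseudocount of 0.1, no filter, a minimum of 10 CPM in place of 0.5, only the libraries of a contrast, the replicate number as a block, edgeR 4.0.16, DESeq2 1.42.0 and leaving out each library. A crossed block and median transcript length were added after the data were seen. In a simulation of 20466 genes, limma recovered 36.0% of changes of 1.25-fold in KYSE-410, 17.0% in KYSE-30 and 0.25% for the difference. For changes of 2-fold the shares were 88.0%, 75.5% and 72.25% in the same order. A gene that was not called may thus still have changed by 1.25-fold. Python 3.11.15 with pandas 2.3.3, numpy 2.4.6 and matplotlib 3.10.9 did the rest.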

Additional observations from a re-analysis of the deposited data

Results flagged for a closer look

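The siSHIP2 effect on 7 of 18 keratin genes differed between KYSE-410 and KYSE-30 by a test of the difference of log2 fold changes (KYSE-410 minus KYSE-30, limma, adjusted over all genes). The same test called 32.4% of all genes. The difference was -1.88 for KRT6A, -1.79 for KRT5, -0.96 for KRT4, -0.61 for KRT80, -0.33 for KRT8, -0.27 for KRT18 and 0.40 for KRT17. KRT6A, KRT4, KRT80, KRT8 and KRT18 had estimates of opposite sign in the lines, below 0 in KYSE-410 and above 0 in KYSE-30, but only the KYSE-410 value of KRT6A, KRT4, KRT80 and KRT18 was called. The differences for KRT5 and KRT17 are limited by their level in KYSE-30. KRT5 was at 2 to 6 scaled counts a library there, where a change was not detectable, and edgeR and DESeq2 did not call its difference (adjusted p = 0.195 and 0.0923). For KRT17 they gave adjusted p = 0.386 and 0.416. The calls of the differences for KRT8, KRT18 and KRT17 were each lost in some alternatives, as given above. INPPL1 itself was left at 37.4% of its siCT mean in KYSE-410 and 62.8% in KYSE-30, and its log2 fold change also differed between lines (-0.75, adjusted p = 7.63e-05, limma). The part of the unequal knockdown in the keratin differences was not tested.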

How the results depend on the processing

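Each of the 18 measured keratins was refitted under every alternative in which it could be tested. Of these refits, 1254 kept their direction and side of the threshold, 38 lost a call, 23 gained one and 47 turned in sign, the last all of values that were not called. Keratins called in KYSE-410 numbered 9, 6 to 11 when 1 library was left out (6 without siCT replicate 3 and 6 without siSHIP2 replicate 2) and 7 to 11 otherwise. In KYSE-30 they numbered 0, 0 to 2 when 1 library was left out and 0 otherwise. For the difference they numbered 7 (5 to 7), and between lines 15 (14 to 15 with a library left out, 11 with a filter of 10 CPM, where 12 were tested). All genes called in KYSE-30 numbered 482, against 160 with TMM, 78 with no filter, 0 with only the libraries of the contrast, where the spread is estimated from 4 libraries, and 14 to 812 with 1 library left out. Between lines they numbered 15539, against 10041 with a filter of 10 CPM, where 12199 genes were tested. The cause of the other shifts was not tested.

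Deviations of same-numbered replicates from their group means had r = 0.0409, -0.165 and 0.0924 in KYSE-410 and -0.116 in KYSE-30. With 2 libraries a group, every pairing in KYSE-30 gives the same size of r and only its sign can differ. With so few libraries, these values cannot decide whether the numbers mark shared cultures or days. With the replicate block, keratin calls were 9, 0, 7 and 15 in the same order, and all genes called in KYSE-30 numbered 71. With the crossed pairing in KYSE-30 there were 437, and 0 keratins.

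Signs that turned with TMM, relative log expression scaling, edgeR and DESeq2, in that order, were those of KRT10 in KYSE-410 (-0.11, -0.10, -0.094 and -0.10), KRT23 in KYSE-410 (-0.042, -0.036, -0.068 and -0.073) and KRT7 in KYSE-410 (-0.058, -0.049, -0.036 and -0.044). KRT5 in KYSE-30 turned to -0.012 with edgeR and -0.012 with DESeq2, and KRT19 for the difference to -0.031 with TMM and -0.018 with relative log expression scaling. With 1 library left out, signs turned in KYSE-410 within -0.021 to 0.021 for KRT10, -0.0505 to 0.061 for KRT14, -0.079 to 0.16 for KRT23 and -0.18 to 0.0799 for KRT86. In KYSE-30 the ranges were -0.34 to 0.024 for KRT19, -0.64 to 0.14 for KRT23, -0.23 to 0.091 for KRT31, -0.12 to 0.12 for KRT5 and -0.084 to 0.27 for KRT86. For the difference they were -0.17 to 0.92 for KRT13, -0.28 to 0.18 for KRT16, -0.10 to 0.26 for KRT19, -0.10 to 0.67 for KRT23, -0.18 to 0.14 for KRT31, -0.094 to 0.085 for KRT81 and -0.34 to 0.014 for KRT86. Between lines they were -0.10 to 0.99 for KRT13, -0.19 to 0.58 for KRT23 and -0.10 to 0.16 for KRT31.

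TMM moved the median of all genes in KYSE-410 to -0.01, against 0.07 on the deposited scale. Protein identity between keratins was planned and not run. Genes near the floor, KRT5 in KYSE-30 above all, allow no statement on small changes.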

Other observations

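Of 8 fibroblast markers, 4 averaged at least 0.5 CPM in each KYSE-410 group and 1 in each KYSE-30 group. Their summed levels were 92.7 to 99.1 CPM in KYSE-410 siSHIP2 and 106 to 129 CPM in KYSE-410 siCT. In KYSE-30 the sums were 5.997 to 6.69 CPM with siSHIP2 and 6.30 to 6.995 CPM with siCT. Between lines with siCT, the log2 differences of the 4 tested ran from 0.60 to 6.75 with a median of 0.93, so a sum can rest on few genes. In KYSE-410, 1 of 4 tested fibroblast markers rose and 2 fell after knockdown, against 30.6% of all genes called higher and 19.3% called lower, and in KYSE-30 limma, edgeR and DESeq2 called 0 of 4, with 0 at an unadjusted p under 0.05. Leukocyte markers summed to 10.7 to 13.4 CPM in KYSE-410 siSHIP2 and 12.7 to 14.2 CPM in KYSE-410 siCT. The sums were 19.9 to 22.5 CPM in KYSE-30 siSHIP2 and 17.99 to 20.7 CPM in KYSE-30 siCT. In each group, 1 of the 6 leukocyte markers averaged at least 0.5 CPM. Of glandular markers, 2 of 6 tested rose and 2 fell in KYSE-410, against the same shares.

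KRT4 and KRT13, the esophageal suprabasal partners, were unequal at the RNA level per kb. KRT4 was between 0.0573 and 0.0773 of KRT13 in KYSE-410 siSHIP2 libraries and between 0.0736 and 0.09 in KYSE-410 siCT libraries. In KYSE-30 it was 0.167 and 0.169 with siSHIP2 and between 0.0541 and 0.101 with siCT. Pseudogene rows of the family numbered 147, of which 12 were measured, and summed to 38.4 to 75.7 CPM a library.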
